A study of Rattus norvegicus with 6 samples.

Results

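The proteasome genes of the rat spinal cord were followed through T cell mediated inflammation and antibody transfer. All targets on the array whose gene name starts with Psm, a letter from a to g and a digit were taken, which gave 45 targets of 44 genes, measured by 52 probes, among 36410 targets and 41012 probes in all. One of the 45, Psmc3ip, matches by its name only and encodes a partner of a subunit, not a subunit. The target named Psmd14 is described in the deposited files as similar to T-Brain-1, so its name is uncertain.

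Adult Lewis rats were studied, and RNA of formalin-fixed, paraffin-embedded spinal cord was amplified. ENMO rats received T cells specific for myelin basic protein (MBP) on day 0 and NMO-IgG, an IgG preparation of patients with neuromyelitis optica, on day 4. EAEcoI rats received the same T cells and subcuvia, a commercial human IgG, as control IgG, and EAEcoP rats the same T cells and PBS in place of an antibody. The NMO-IgG only and control IgG only groups received the antibody without T cells, and the healthy control was untreated. The injected rats were killed 24 hours after antibody or PBS. RNA of 5 rats was pooled for each group, or of 3 rats for the healthy control, and each pool was measured on 1 array, so that no group has a replicate. In the comparison of T cells with no T cells the 3 arrays with T cells (ENMO, EAEcoI, EAEcoP) were set against the 3 without, although the arrays of a side differ in antibody, and its p-values measure the spread between these arrays. Slide 1 held the arrays of control IgG only, ENMO and EAEcoP, and slide 2 the other 3.

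The proteasome degrades proteins that carry ubiquitin chains. Its 20S core is built of rings of alpha subunits (Psma genes) and beta subunits (Psmb genes), and the beta subunits encoded by Psmb5, Psmb6 and Psmb7 cut the substrate. The 19S cap unfolds the substrate with a ring of ATPases (Psmc genes) and recognises and trims the ubiquitin chain with further subunits (among the Psmd genes). Under interferon gamma, cells exchange the cutting subunits for Psmb8, Psmb9 and Psmb10 and add the activator of Psme1 and Psme2. This immunoproteasome is known for cutting peptides that class I molecules present, and immune cells hold it at rest.

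Each target is read by oligonucleotides of 60 bases. The probes of the exchanged subunits and of the subunits they replace are shown, because the comparison of the immunoproteasome with the constitutive core rests on them. They are given 5′ to 3′ as deposited, with each inducible subunit before its counterpart.
Psmb9: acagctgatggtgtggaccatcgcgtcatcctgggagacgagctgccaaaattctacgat
Psmb6: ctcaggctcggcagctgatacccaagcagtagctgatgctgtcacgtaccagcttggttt
Psmb10: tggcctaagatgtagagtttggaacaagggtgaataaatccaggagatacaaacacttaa
Psmb7: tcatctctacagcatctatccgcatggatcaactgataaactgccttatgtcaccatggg
Psmb8: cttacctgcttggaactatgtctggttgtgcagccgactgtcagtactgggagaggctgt
Psmb5: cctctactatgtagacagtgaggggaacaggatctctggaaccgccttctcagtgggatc
The GC content of these probes ran from 38.3% for Psmb10 to 55.0% for Psmb6. Since each probe binds with its own strength, levels were compared between arrays for 1 probe and never between probes.

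In the rat assembly GRCr8, Psmb9 lies on chromosome 20 (4668952-4674421) beside Tap1 (4658171-4668543), which encodes a chain of the peptide transporter into the endoplasmic reticulum, and Psmb8 (4654068-4657049) lies on the far side of Tap1, next to Tap2 (4638257-4652296). Psmb10 lies on chromosome 19 (50740808-50743292), and Psme1 and Psme2 on chromosome 15 (33038962-33041849 and 33048452-33053055). RefSeq promoter windows, which reach from 250 bases before the start of a transcript to 50 bases after it, were searched on both strands for the core of the interferon-stimulated response element, GAAA, any 2 bases and GAAA, and of the gamma-activated site, TTCNNNGAA. The first is held by 3.92% of the 33469 rat promoters and by 3 of the 9 searched here, those of Psmb10, Psmb8 and Psme2. The second is held by 8.87% of all promoters and by 1 of the 9, that of Psmb8. The window of Psmb10 (chr19:50743243-50743542, minus strand) is shown, because it was the only one of the 9 with 2 matches to the first motif, which start 73 and 17 bases before the start and are in capitals.
Psmb10 promoter: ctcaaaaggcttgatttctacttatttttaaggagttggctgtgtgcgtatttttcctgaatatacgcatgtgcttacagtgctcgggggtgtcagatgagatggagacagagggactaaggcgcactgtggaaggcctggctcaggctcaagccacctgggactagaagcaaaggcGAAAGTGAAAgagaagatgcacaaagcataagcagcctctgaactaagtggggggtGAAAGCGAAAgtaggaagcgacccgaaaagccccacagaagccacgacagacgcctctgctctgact
These matches describe letters only. The start used for a window was the outermost one of the gene for Psmb10, Psmb5, Psmb7 and Psme3, and lay 9 to 48 bases inside the gene for Psme1, Psmb8, Psmb6 and Psmb9 and 304 bases inside it for Psme2, whose match is placed from that inner start. The window of Psmb9 held neither motif and shared 44 bases with that of Tap1, which is read in the opposite direction.

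Levels are given as normalized signal intensity (NSI), the background-corrected intensity after quantile normalization over the 6 arrays, and a target was taken from its brightest probe. Where arrays are not named, values come in the order ENMO, EAEcoI, EAEcoP with T cells, and NMO-IgG, control IgG, healthy control without. Of the 45 proteasome targets, 36 were well above background on 1 or more arrays, and 24 of these on every array. The other 9 were never above background, namely Psma2, Psmb1, Psmc6, Psmd5, Psmd6, Psmd14, Psmg4 and the pair of targets of Psme4, and no change can be given for them. Differences between single arrays were set beside the spread between spots of one probe, which had an SD of 0.576 (log2) over the 263 probes printed 10 times and gives 0.814 for a difference, or 1.76-fold. This covers the array and not the animals. The share of spots above background was 44.4, 54.1 and 60.2% on the arrays with T cells and 40.0, 35.4 and 41.7% on those without, so that dim targets were measured on fewer of the latter, and the part of this in the results on dim targets was not tested. Of 6 oligodendrocyte markers, Mbp, Mog, Mobp and Cldn11 were above background on all 6 arrays, and Mag and Cnp on 4. Mb, 1 of 5 skeletal muscle markers on the array, was also above background on all 6, at an NSI of 828 to 1714. The astrocyte markers Slc1a3 and S100b were above background on no array, Aqp4 on EAEcoP alone and Gfap on 4 arrays.

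The largest ratios among the proteasome targets were those of Psmb9 and Psmb10, catalytic subunits of the immunoproteasome. Psmb9, the inducible counterpart of Psmb6, was higher on all 3 arrays with T cells than on all 3 without, by 20.1-fold in mean NSI. Psmb10, the counterpart of Psmb7, was 14.7-fold higher in mean, and this rested on ENMO and EAEcoP, since EAEcoI lay at the level of the healthy control. Psmb8, the counterpart of Psmb5, was dim and at least 1.25-fold higher, and Psme2 differed by less than the spread.

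Psmb9 had an NSI of 1615 on ENMO, 595 on EAEcoI and 401 on EAEcoP, while without T cells it stood at 38.4 with NMO-IgG, 39.9 with control IgG and 51.6 in the healthy control. The groups did not overlap, and the lowest array with T cells stood 7.77-fold above the highest without. Of 17776 targets with a measured ratio, 26 (0.146%) had a higher one than Psmb9. The log2 difference was 4.08 ± 0.62 (SE, n = 3 arrays against 3), and the adjusted p of limma over all targets was 0.162, so Psmb9 did not pass the threshold of 0.05. Without ENMO the ratio was 11.5. Psmb9 is also a gene that the study picked on these arrays. By qPCR on fresh tissue, the study reported Psmb9 significantly higher in ENMO than in all its controls without T cells. Against EAEcoI and EAEcoP it reported only a trend to higher expression.

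Psmb10 had an NSI of 1045 on ENMO, 32.3 on EAEcoI and 2072 on EAEcoP, while without T cells it stood at 54.5 with NMO-IgG, 128 with control IgG and 31.9 in the healthy control. EAEcoP was 65.0-fold above healthy control and ENMO 19.2-fold above NMO-IgG only, whereas EAEcoI was 3.96-fold below control IgG only. The groups overlapped, and the log2 difference of 2.77 ± 1.34 (SE) had a limma adjusted p of 0.465. Without EAEcoI the groups no longer overlapped, and the ratio was 7.54 without EAEcoP and 24.3 without control IgG only. The comparison within slides followed the same division: 12.2-fold higher with T cells on the slide of ENMO and EAEcoP, and 0.747-fold on the slide of EAEcoI. For Psmb9 the same values were 25.3-fold and 13.2-fold.

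Psmb8 was above background on EAEcoI (NSI 15.8) and EAEcoP (17.9) and not on ENMO (8.92), NMO-IgG only (9.49), control IgG only (8.33) or healthy control (9.22). The array of ENMO therefore stood with those without T cells. The limma adjusted p was 0.660.

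Psme1 and Psme2 encode the subunits of the activator that caps the core in place of the 19S particle. Psme1 was above background on EAEcoP only, with an NSI of 12.2 against 6.70 on ENMO, 2.07 on EAEcoI and 1.76 to 2.80 where no T cells were given, and no ratio is given, since the mean with T cells lay below the lowest NSI that counted as above background on the arrays without. Psme2 had an NSI of 168 on ENMO, 162 on EAEcoI and 113 on EAEcoP, and without T cells of 118 with NMO-IgG, 76.6 with control IgG and 219 in the untreated cord, the highest of the 6. Its ratio of 1.07 and log2 difference of 0.21 ± 0.56 (SE) did not pass the test, with a limma adjusted p of 0.893, and the ratio lay below 1 under 7 of 16 other settings. The probe of Psme2 also lists predicted transcripts that resemble it, and could share their signal.

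**Figure D1:**
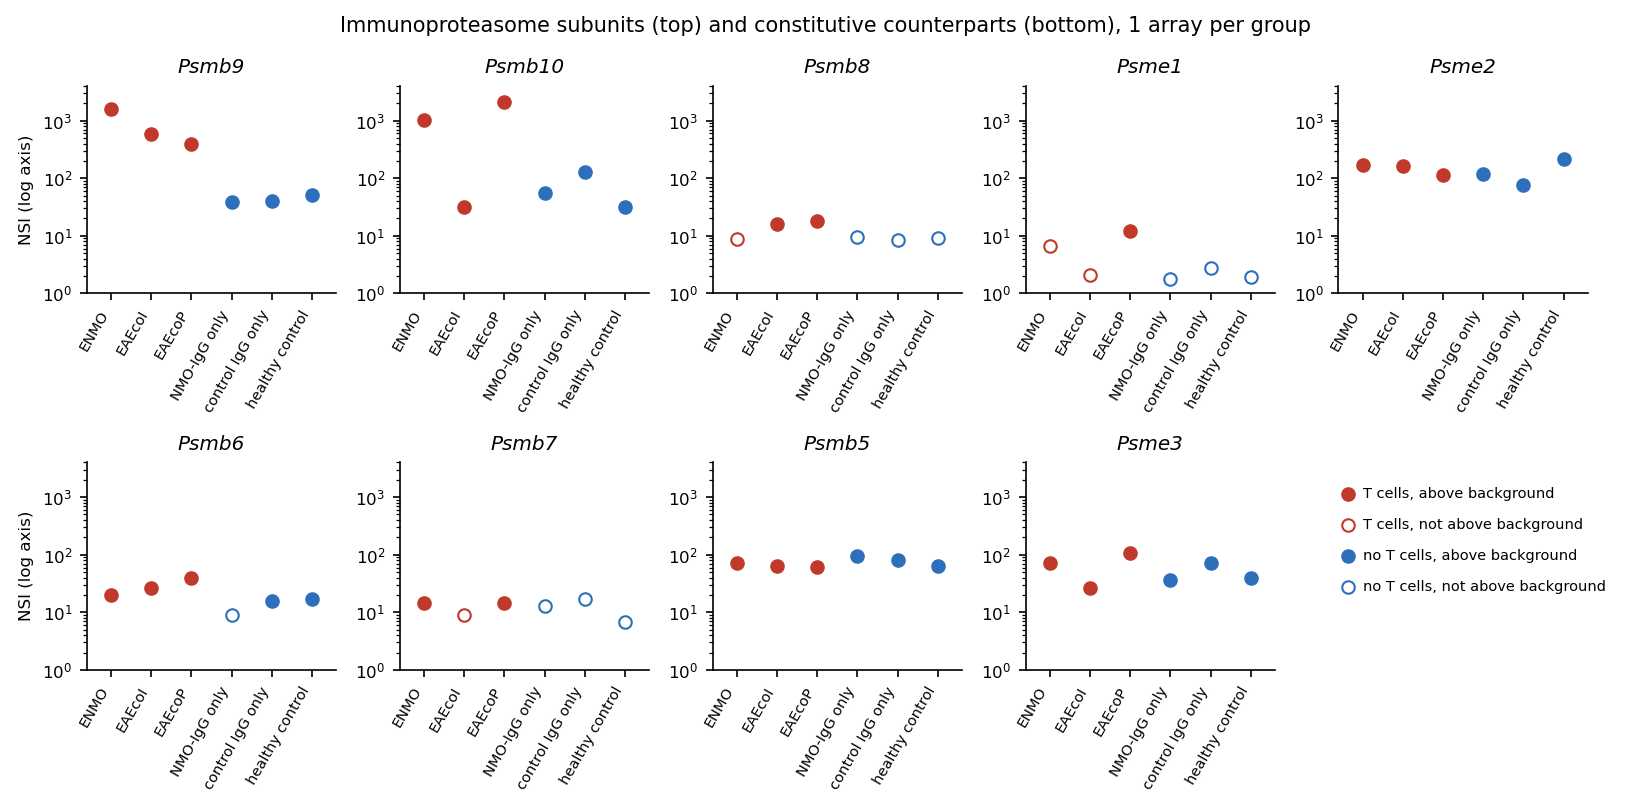
NSI (log axis) of the 5 immunoproteasome subunits on the 6 arrays (top row). The bottom row shows the constitutive subunits Psmb6, Psmb7 and Psmb5 and the further activator Psme3. Red stands for T cells, blue for no T cells and open points for arrays on which the target was not well above background. Psmb9 lies at 401 to 1615 with T cells and at 38.4 to 51.6 without, while Psmb10 on EAEcoI lies at 32.3, beside the healthy control at 31.9.

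The constitutive counterparts had smaller ratios. Psmb6 had an NSI of 19.8 on ENMO, 26.0 on EAEcoI and 40.1 on EAEcoP, and of 9.13 (not above background), 15.6 and 17.2 without T cells. It was 2.04-fold higher with T cells without overlap, with a limma adjusted p of 0.497. Psmb5 had an NSI of 72.4, 63.0 and 61.9 on ENMO, EAEcoI and EAEcoP and of 96.6, 79.7 and 64.6 without T cells, the narrowest range among the 24 targets above background on all arrays, at 1.56-fold. Psmb7 was above background on ENMO and EAEcoP only, at 14.6 and 14.3, and its other arrays ran from 6.74 to 17.1, so that no ratio is given. Psme3, which encodes a further activator of the core, had an NSI of 71.7, 26.6 and 105 with T cells and 35.7, 71.2 and 39.4 without.

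Whether the 2 targets of a pair changed by different amounts was tested for 5 pairs with an exact permutation test over the arrays (two-sided). The smallest p that 3 arrays against 3 allow is 0.1. Psmb8, Psmb9 and Psmb10 were each set against the subunit they replace. Psme1 and Psme2 were each set against Psme3, a further activator and not a subunit they are exchanged for. The log2 change of Psmb9 exceeded that of Psmb6 by 3.06 (exact p = 0.1, 0.25 adjusted over the 5 pairs). The change of Psme2 was lower than that of Psme3, with a difference of -0.12 (exact p = 0.9, also adjusted). In the other 3 pairs Psmb7, Psmb8 or Psme1 was not above background on 4 or 5 arrays, so that their differences rest on values below background and no size is given here. The design cannot bring any pair below 0.05.

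Over all 36 proteasome targets tested, limma called 0 at an adjusted p under 0.05, and it called 0% of the 24944 targets tested. At an unadjusted p under 0.05 it gave 2 of the 36, Psmb4 and Psmb9, against 11.3% of all targets (2826). All 3 arrays with T cells lay above all 3 without for 5 of the 36 targets (13.9%), namely Psma6, Psma7, Psmb4, Psmb6 and Psmb9, where 10.9% of all targets did so. They lay below for 4 (11.1%), namely Psmc1, Psmd1, Psmd8 and Psmd13, where 7.04% of all targets did so. Both shares are near those of all targets, and Psmb4 and Psmd13 were above background only on the side where they were high. In ratio of means, 4 targets were higher by more than the spread (15.9% of all targets with a ratio were) and 6 lower (17.1% were), of 32.

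Of the alpha ring, which gates the entry to the core, 6 of 7 targets were above background on at least 1 array. The median log2 ratio of the 5 with a ratio was 0.18, against -0.11 for all targets with a ratio. Psma6 had an NSI of 125 on ENMO, 94.2 on EAEcoI and 137 on EAEcoP, against 54.9, 71.1 and 50.3 without T cells, and was 2.02-fold higher. A further probe of Psma6, above background on 1 array only, gave 2.01-fold. Psma7 was 1.63-fold higher, at 26.3, 24.9 and 38.6 against 14.4 (not above background), 18.6 and 22.1. The lowest ratio in the ring was that of Psma5, 0.565-fold, with an NSI of 224, 134 and 75.9 with T cells and 274, 182 and 312 without. Psma4 was close to it at 0.567-fold, with 166, 118 and 243 against 211, 246 and 473. In both the groups overlapped and the healthy control was the highest array. Psma3 had a ratio of 1.13, and Psma1 was above background on EAEcoP only (7.95), without a ratio.

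Of the constitutive beta subunits, 6 of 7 were above background on at least 1 array, and the 5 with a ratio, 2 of them bounds, had a median log2 ratio of 0.07. Psmb6 was the highest. Psmb4, a beta subunit without catalytic activity, was above background on EAEcoP alone, at an NSI of 36.3, with 9.24 on ENMO, 4.41 on EAEcoI and 1.87 to 2.13 where no T cells were given. Against the background level this is a difference of at least 1.05-fold, and the unadjusted p of limma, 0.00767, rests on values below background. Psmb2 was above background on the 3 arrays with T cells (9.04 to 19.7) and on none without (2.46 to 10.9), which gives at least 1.30-fold. Psmb3 had the lowest ratio, 0.774-fold, and 0.436-fold without ENMO.

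Of the 6 ATPases in the base of the 19S cap, 5 were above background on at least 1 array, and the 4 with a ratio, Psmc1, Psmc2, Psmc3 and Psmc5, all had lower means with T cells, at a median log2 ratio of -0.63. Psmc1 had an NSI of 188, 155 and 98.9 on ENMO, EAEcoI and EAEcoP against 263, 200.02 and 584 without T cells, which is 2.37-fold lower, and limma gave an adjusted p of 0.486. The ratio of 0.422 became 0.636 without the healthy control. Psmc5 was 0.501-fold, and 0.293-fold without ENMO. Psmc2 had a ratio of 0.832, at 314, 185 and 323 against 344, 372 and 271, and Psmc3 the ratio nearest to 1, 0.843, at 34.8, 49.0 and 46.9 against 62.9, 45.5 and 46.5. Psmc4 was above background on 2 arrays and has no ratio. The probes of Psmc4 and Psmd12 also list look-alike transcripts.

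Of the other targets grouped with the 19S cap, by their Psmd names, 11 of 14 were above background on at least 1 array. Their median log2 ratio was -0.45. A Psmd name does not by itself make a target a subunit of the cap. Psmd8 had an NSI of 31.5, 28.0 and 7.36 with T cells (ENMO, EAEcoI, EAEcoP) and 46.7, 49.3 and 41.7 without, which is 2.06-fold lower. Psmd1, a scaffold of the cap, was 1.66-fold lower, at 117, 52.2 and 89.4 against 126, 134 and 169, but its other probe, above background on 5 arrays, gave 0.863-fold with overlap. Psmd13 was above background on NMO-IgG only alone, at 26.5, and this gives at least 1.71-fold lower with T cells. Psmd4, a receptor for ubiquitin chains, had the lowest ratio of the class, 0.483-fold, though its lowest array without T cells (290.2, healthy control) overlapped with ENMO (291), and Psmd12 had the highest, at least 1.16-fold. The remaining members of the class had ratios closer to 1 and groups that overlapped. These were Psmd2 (0.717), Psmd3 and Psmd9 (both 0.733), Psmd11 (0.802), Psmd10 (0.805) and Psmd7 (0.873), all lower in mean with T cells. The ratios of Psmd2, Psmd7 and Psmd10 lay above 1 under 4 of 16 other settings each, among them that of Psmd2 without the healthy control (1.21) and those of Psmd7 and Psmd10 without EAEcoP (1.14 and 1.03). Psmd10, also known as gankyrin, was lowest on EAEcoP at an NSI of 28.9, against 49.4 to 124 on the other arrays, and Psmd11 was lowest there too, at 38.7 against 74.0 to 96.6. No adjusted p of limma in these classes passed the threshold. Psmc3ip, which encodes a partner of a subunit, had a ratio of 0.718. Probes of one target did not always give one answer: Psmd2 had ratios of 0.717 and 1.53, and Psmd7 of 0.873, 2.62 and 0.846, where only the first of each was above background on more than 1 array.

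Of 16 targets grouped with the 19S cap by name and above background on at least 1 array, 14 had a ratio of mean NSI below 1. Values not above background were included. Of the 16, 14 lay below the median of all targets tested. No test compared the cap with the core. With the deposited values, not normalized between arrays, the log2 median of all 24944 targets tested, which was -0.0026 after normalization, was 0.75, 5 of the 16 were below 1 and 14 were below that median. The targets without overlap were then 10 higher and 0 lower, in place of 5 and 4.

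**Figure D2:**
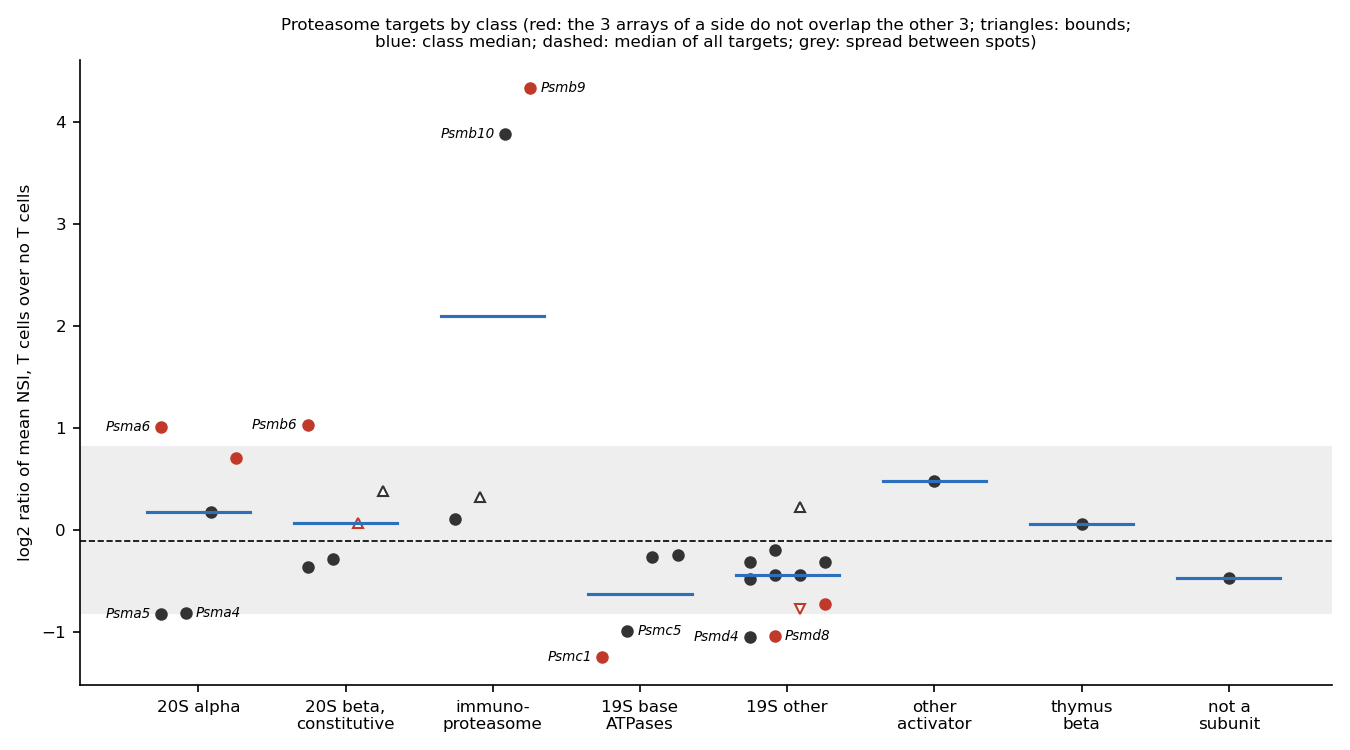
Log2 ratio of mean NSI, T cells over no T cells, for the 32 proteasome targets with a ratio, by class. Triangles mark ratios that are bounds, taken from means of log2 NSI, and red marks targets whose groups of arrays do not overlap. Blue lines are class medians, and the dashed line is the median of all targets with a ratio (-0.11). Psmb9 and Psmb10 stand apart from the other targets, which lie between -1.24 and 1.03.

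Over the 24 targets above background on all 6 arrays, the highest array exceeded the lowest by a median of 3.93-fold, close to the 3.59-fold of all 11076 such targets. Psmb10 (65.0-fold) and Psmb9 (42.1-fold) had the widest ranges and Psmb3 (6.75-fold) the next. Psmd8, Psmc5, Psmc1 and Psmd2 followed, each lowest on EAEcoI or EAEcoP and highest on an array without T cells. Psmb11, which encodes a catalytic subunit of the proteasome of the thymus, was above background on all 6 arrays at a low NSI of 17.1 to 32.2, with a ratio of 1.04.

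**Figure D3:**
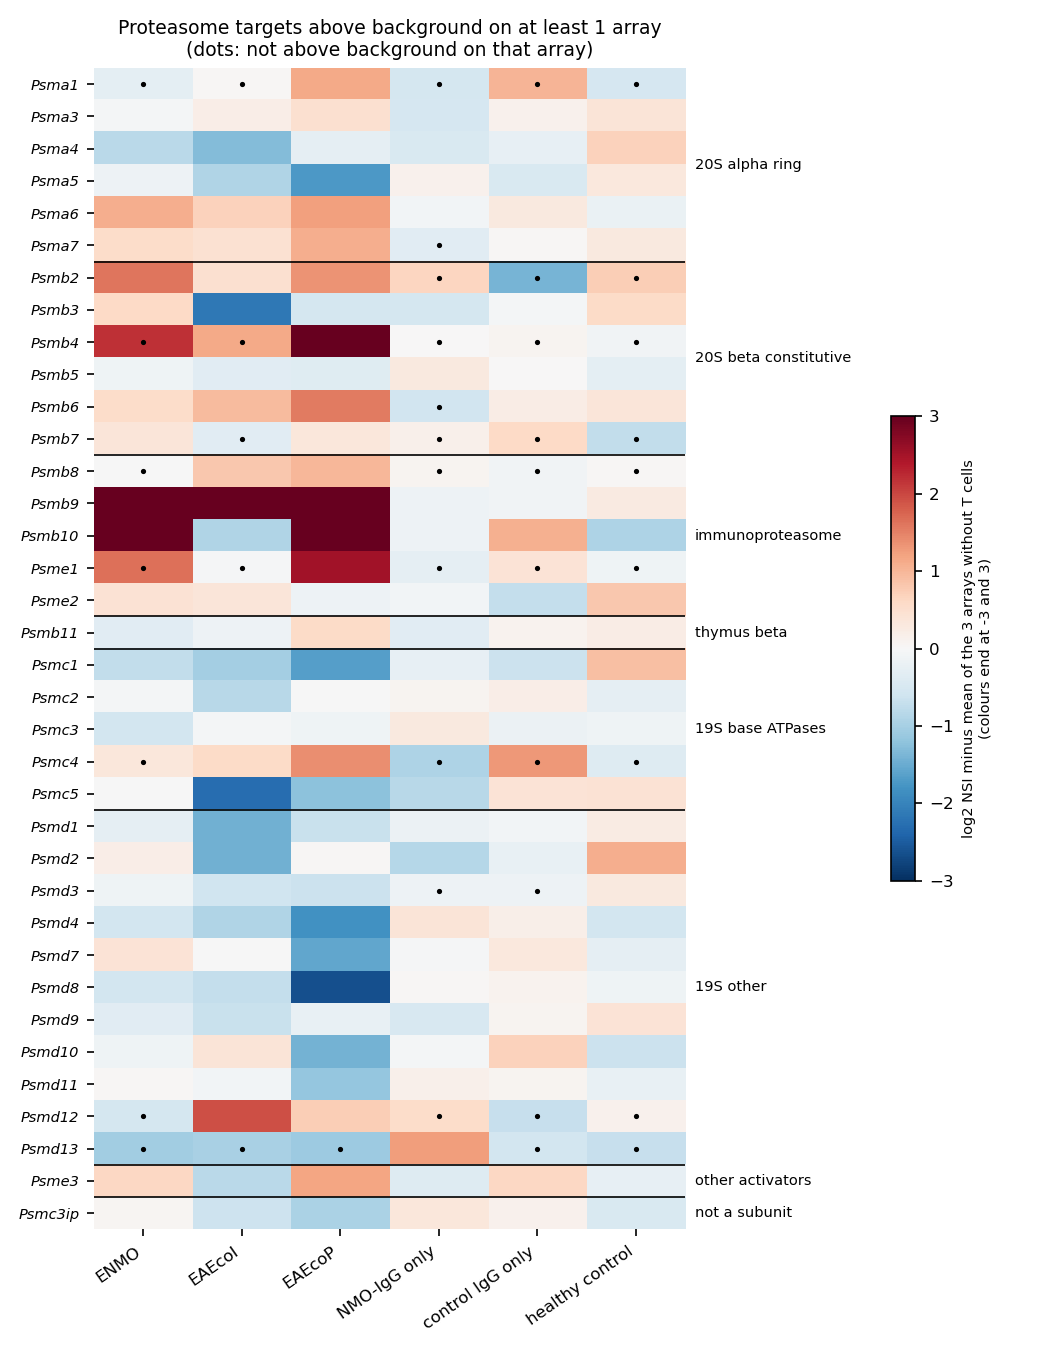
Log2 NSI of the 36 proteasome targets above background on at least 1 array, each minus its mean over the 3 arrays without T cells, with black dots on arrays where the target was not well above background and lines between classes. The rows of Psmb9 are dark red on all 3 arrays with T cells and those of Psmb10 on ENMO and EAEcoP only, and the rows of the 19S cap are mostly blue on EAEcoI and EAEcoP.

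Next, T cells were compared with no T cells at the same antibody, that is ENMO with NMO-IgG only, EAEcoI with control IgG only and EAEcoP with healthy control, 1 array each. Psmb9 was the only one of 28 proteasome targets measured in all 3 comparisons that was higher by more than the spread in each (3.6% of all targets were). Its ratios were 42.1, 14.9 and 7.77. Psmd4 was the only one lower in each (2.25% of all targets were), by 1.90-fold, 2.11-fold and 2.40-fold. Psmb6 was higher by at least 1.86-fold, 1.66-fold and 2.33-fold, of which the second lay within the spread. Psmc5, an ATPase of the base, was 1.76-fold higher on ENMO and 6.42-fold and 3.18-fold lower in the comparisons of EAEcoI and EAEcoP.

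The question of what NMO-IgG adds to T cells was addressed by ENMO against EAE. Psmb9 was 3.25-fold higher on ENMO than in the mean of EAEcoI and EAEcoP, 2.72-fold above the first and 4.03-fold above the second. Psmb9, Psmb3 and Psmc5 stood above both EAE arrays by more than the spread, which is 3 of 32 proteasome targets (11.3% of all targets did). Psmb3, a beta subunit without catalytic activity, had an NSI of 373 on ENMO, 55.2 on EAEcoI and 169 on EAEcoP, against 169.8, 236 and 364 without T cells, so that ENMO stood beside the healthy control. Psmc5 likewise had an NSI of 5016 on ENMO, 1045 on EAEcoI and 2156 on EAEcoP, against 2849.6, 6705 and 6851 without T cells. For Psmc5 the ENMO array lay within the range of the arrays without T cells, and for Psmb3 and Psmb9 above it.

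Psmb8 was below both EAE arrays by more than the spread, by at least 1.77-fold and 2.0-fold, and was the only such target of 32 (9.18% of all targets did so). The first of these values lies at the edge of the spread of 1.76-fold. Psmb10 had a ratio of 0.993 to the mean of the EAE arrays, which were 64.2-fold apart: ENMO was 32.4-fold above EAEcoI and 1.98-fold below EAEcoP. Psme2 had a ratio of 1.22. Limma, in which the lone ENMO array is assumed to vary like the other groups, called 0 of the 36 proteasome targets and 0% of all targets at an adjusted p under 0.05, and at an unadjusted p under 0.05 it gave 1, Psmb9, and 1429 of all targets.

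Without T cells, NMO-IgG was compared with control IgG on 1 array each. Psmb9 differed by 1.04-fold, within the spread, and Psme2 by 1.54-fold. Psmd13 was above by at least 2.30-fold, 1 of 27 proteasome targets (18.9% of all targets were above by more than the spread). Psmb10, Psmc5 and Psme3 were below, by 2.34-fold, 2.35-fold and 1.99-fold, 3 of 27 (16.6% of all targets). The same 3 genes were higher with NMO-IgG than with control IgG in the presence of T cells, by 32.4-fold, 4.80-fold and 2.70-fold. EAEcoI had the lowest NSI of all 6 arrays for Psmc5 and Psme3 and an NSI near that of the healthy control for Psmb10. Against EAEcoP, ENMO was 2.33-fold higher for Psmc5, and lower by 1.98-fold for Psmb10 and 1.47-fold for Psme3.

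**Figure D4:**
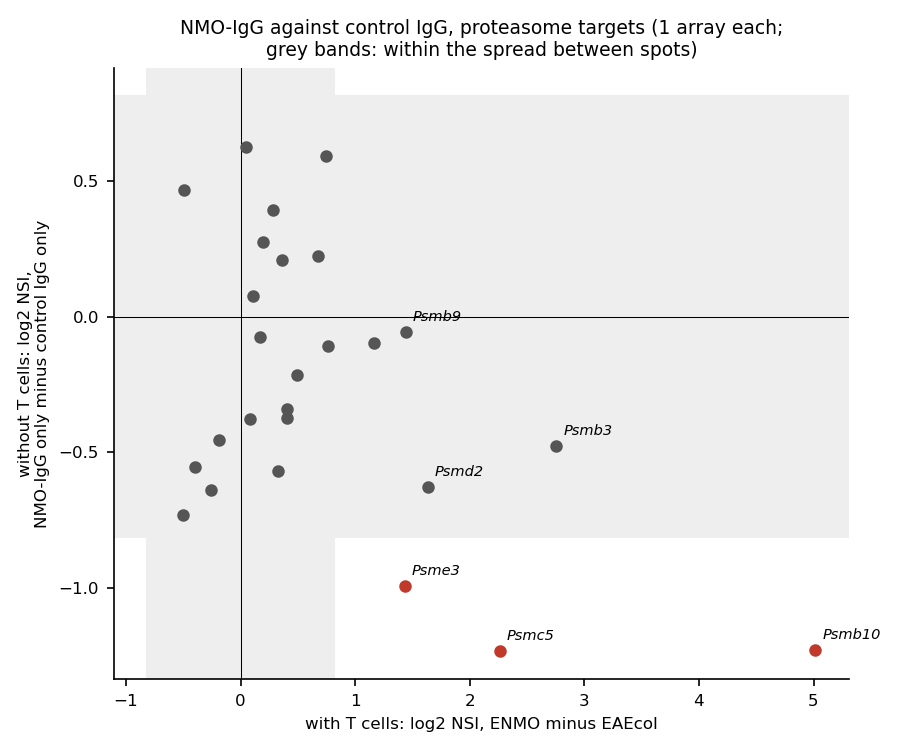
Log2 difference in NSI of NMO-IgG against control IgG with T cells (ENMO minus EAEcoI, x axis) and without T cells (NMO-IgG only minus control IgG only, y axis) for the 26 proteasome targets with both values, each from 1 array a group, with grey bands for differences within the spread. Psmb10, Psmc5 and Psme3 (red) lie past the spread in opposite directions, and Psmb9 lies at 1.44 with T cells and -0.06 without.

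Genes around the immunoproteasome were followed as lists, whose counts of ratios past the spread stand beside the 15.9% higher and 17.1% lower of all targets. Peptide loading takes the cut peptides to class I molecules. Of 10 genes, 8 are on the array, and of the 6 with a ratio 4 were higher by more than the spread and none lower. Their median log2 ratio was 1.30, against -0.11 for all targets with a ratio. The limma threshold was passed by 0, and 2 had an unadjusted p of limma under 0.05. Tapbp and RT1-CE16 were higher without overlap. B2m, the light chain of class I molecules, had an NSI of 3817, 476 and 1575 on ENMO, EAEcoI and EAEcoP against 518, 280.1 and 481 without T cells (4.59-fold), so that EAEcoI again lay among the arrays without T cells. RT1-CE16, a class I heavy chain, was 3.30-fold higher without overlap, at 83.5, 107 and 155 against 29.8, 38.1 and 36.7, and its probe may also bind other class I genes of near-identical sequence. Tap2 was 2.83-fold higher and Tapbp, which bridges the transporter and class I molecules, 2.14-fold higher. Tap1, the neighbour of Psmb9, had an NSI of 24.5 to 45.2 on all arrays and a ratio of 1.18, within the spread. Calr, a chaperone of the loading complex, had the lowest ratio, 0.634.

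Of 10 regulators of the interferon gamma pathway, 8 are on the array and 6 had a ratio, with 2 higher by more than the spread and none lower, a median log2 ratio of 0.55, and 0 past the limma threshold (1 at an unadjusted p under 0.05). Ifng, the cytokine itself, was above background on the 3 arrays with T cells only (16.5 to 20.8), which gives at least 1.55-fold. Irf1, a transcription factor of the pathway, was 2.41-fold higher, at 31.6, 66.3 and 97.7 on ENMO, EAEcoI and EAEcoP against 12.3, 33.5 and 35.3, with overlap. Ifngr2, a chain of the receptor, was 2.27-fold higher with overlap.

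Of the 14 names on the list of further proteasome partners, Sem1 and Shfm1 are the same target, 12 targets are on the array and 9 had a ratio, with 3 higher by more than the spread, 1 lower and a median log2 ratio of 0.02. No target passed the limma threshold, and 1 had an unadjusted p under 0.05. That was Ubd, a ubiquitin-like modifier that targets proteins to the proteasome, with an NSI of 201, 91.8 and 140.3 on ENMO, EAEcoI and EAEcoP against 13.9 and 21.7 on NMO-IgG only and control IgG only. Its spot on the healthy control was left out as an outlier, and its ratio of 8.10 rests on 5 arrays. Pomp, the chaperone that assembles the core, was 2.05-fold lower without overlap, at 24.0, 7.17 and 25.9 against 28.3, 29.4 and 59.5. EAEcoI was its lowest array and the healthy control its highest, and the other arrays lay close together. Of 11 genes that make or attach ubiquitin, 10 are on the array with a ratio, of which 1 was higher and 1 lower by more than the spread, with a median log2 ratio of 0.34 and 0 past the limma threshold (0 at an unadjusted p under 0.05). The higher one was Ube2n (8.98-fold), which rested on an NSI of 4128 on EAEcoP against 94.3 to 267 on all other arrays, and the lower one was Ube2d3 (2.14-fold).

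**Figure D5:**
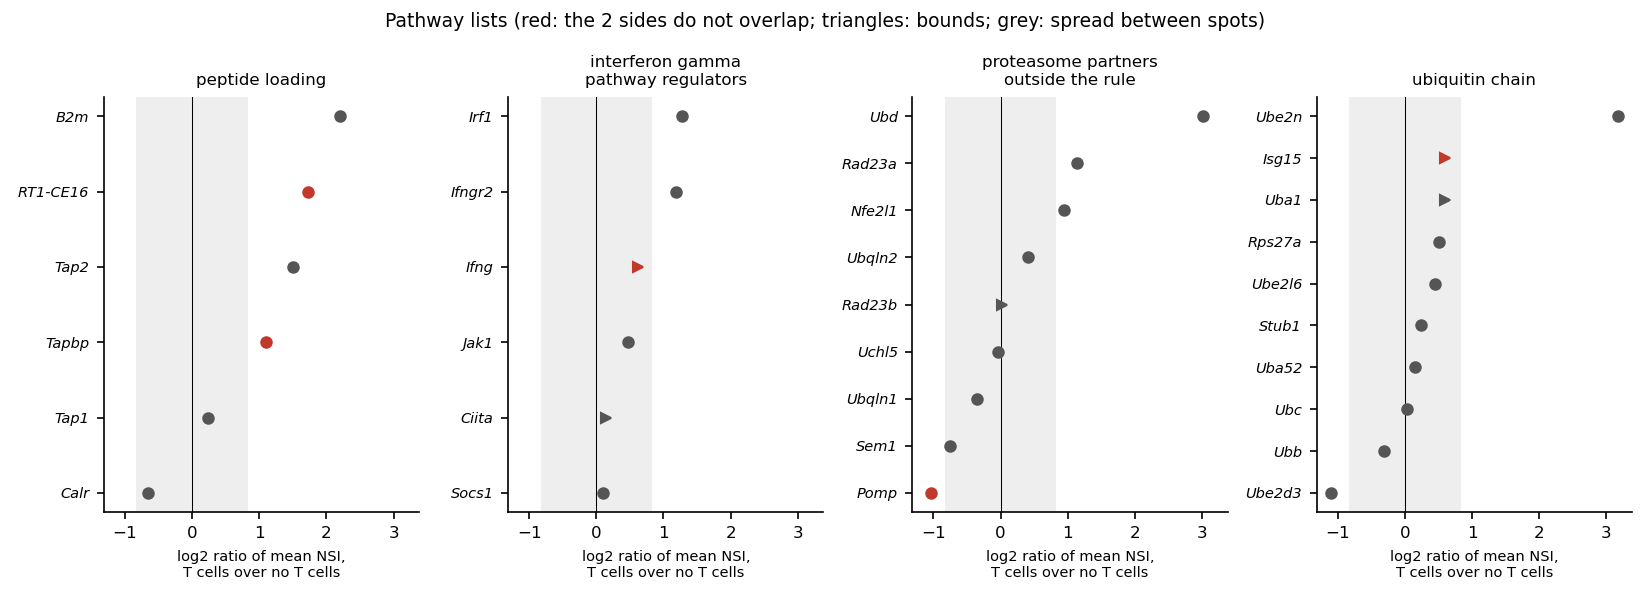
Log2 ratio of mean NSI, T cells over no T cells, for genes of 4 lists. Red marks genes whose groups of arrays do not overlap, and the grey band is the spread between spots. Triangles mark bounds, taken from means of log2 NSI. Peptide loading has a median of 1.30 and the partners of the proteasome one of 0.02, with Ubd at 3.02 and Pomp at -1.04.

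Markers of cell types were read on the same arrays, and in pooled tissue more cells of a type cannot be told apart from more RNA per cell. The summed NSI of 9 myeloid markers on the array was 16502 on ENMO, 7201 on EAEcoI and 5310 on EAEcoP, against 4166, 2639 and 3366 without T cells. This sum was mostly Tyrobp on ENMO, and the other 8 markers summed to 2461, 2568 and 2794 against 1512, 1287 and 2119. Of the 9, 5 were higher on all arrays with T cells and 0 were lower, where 10.9% and 7.04% of all targets were, but 4 of the 5 were above background only on arrays with T cells. Lyz2, a lysozyme of myeloid cells, was at least 18.2-fold higher, and Tyrobp, an adaptor of their receptors, 4.03-fold higher with overlap. Tyrobp and 4 more myeloid markers were above background on all 6 arrays. Of these 4, Laptm5 was 2.05-fold higher without overlap, and Cd68, Csf1r and Ptprc had ratios of 0.979, 0.872 and 0.628. The summed NSI of 8 T cell markers was 2549.7 on ENMO, 1054 on EAEcoI and 1008 on EAEcoP, against 1017, 821 and 728. Most of this sum was Cd3d on every array, at 2348, 924 and 872 against 918, 628 and 594. Of the 8, 1 was higher without overlap (10.9% of all targets were). This was Cd8a, which was above background on EAEcoP only. Cd3e and Cd2 were above background on no array, and Cd247, the signalling chain of the T cell receptor, was 5.70-fold higher with overlap. Cd3d was 1.94-fold higher with overlap, while Cd3g and Cd5 had ratios of 0.870 and 0.786. The part of these cells in the values of Psmb9 and Psmb10 was not tested. For the other marker lists, ratios past the spread stand beside the 15.9% higher and 17.1% lower of all targets with a ratio. They were 0 higher and 2 lower for astrocytes (4 of 7 markers had a ratio). For oligodendrocytes they were 3 higher and 1 lower (6 of 6), and for neurons 0 higher and 1 lower (7 of 8). For endothelium they were 0 higher and 2 lower (5 of 5). For skeletal muscle they were 1 higher and 0 lower (3 of 5, with 2 bounds). The higher one, Acta1, was a bound and was above background only on arrays with T cells.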

How the data were processed

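RNA of 6 pools of rat spinal cord was measured on one-colour Agilent arrays. The authors deposited, per the file headers, the scanner software's intensity for each of 45018 spots, corrected for background and for trends over the array, and a table of 1 intensity per target, which equals the corrected intensity within 0.01% for 100% of 32374 targets with 1 spot and is not normalized between arrays. Paper methods name quantile normalization. Outlier spots were left out, spots of a probe averaged on the log2 scale, arrays quantile-normalized and the brightest probe of a target kept. Ratios are of mean NSI. Where 1 side was never well above background, its values were raised to at least the lowest NSI above background on each array. The ratio was then taken from means of log2 NSI, not from mean NSI, and is given as "at least". Log2 NSI of 24944 targets above background on at least 1 array were fitted with limma 3.58.1 (R 4.3.3; tested on simulated data), Benjamini-Hochberg adjusted p under 0.05, for T cells against none (6 arrays, no covariate) and for ENMO against EAE with 3 groups. Precision is limited by having 6 arrays.

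The spread is the SD between spots times the square root of 2. Over spots above background alone it was 0.513 (1.43-fold) in place of 0.814. The larger was taken after both were seen.

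Named were the 5 immunoproteasome subunits and the 4 targets set beside them (Psmb5, Psmb6, Psmb7 and Psme3). Also named were members without overlap or past the spread, the highest and lowest ratio of each class, and at most 6 genes per list. The lists were peptide loading, interferon gamma regulators, proteasome partners and ubiquitin genes. Marker lists covered T cells, myeloid cells, astrocytes, oligodendrocytes, neurons, endothelium and skeletal muscle. Members and lists were chosen with earlier results of these data known. Promoters came from RefSeq (GRCr8); further letter patterns were looked at and are not reported. From these lists 2 genes were left out and are not reported here. Symbols are those of the array's files. Alternatives were the deposited values, scaling to the 75th percentile, normexp with offset 50, no background correction, outliers kept, the local trend removed (a window of 5 rows and columns), the mean over probes, filters on dim targets, slide or antibody in the fit, within-slide values, single EAE arrays and each array left out.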

Additional observations from a re-analysis of the deposited data

Results flagged for a closer look

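NMO-IgG against control IgG went in opposite directions with and without T cells, past the spread on both sides, for 3 of 26 proteasome targets with both values, against 11.7% of 16614 targets. Each value compares 1 array with 1 array, and the difference was not tested. The log2 difference of Psmb10 was 5.02 for ENMO minus EAEcoI and -1.23 for NMO-IgG only minus control IgG only. For Psmc5 these values were 2.26 and -1.23, and for Psme3 they were 1.43 and -0.99.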

How the results depend on the processing

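Groups of 1 array could not be paired by replicate, and arrays with and without T cells could be paired only by antibody. With antibody as a further term of the fit, which pairs arrays by antibody, the limma adjusted p was 0.123 for Psmb9 and 0.504 for Psmb10. Psmb9 was higher with T cells under every alternative, with a ratio of 20.1 that became 7.81 with the normexp correction and 11.3 with no background correction, and 11.5 to 25.5 with 1 array left out. Its limma adjusted p ran from 0.0457 to 0.747. Without ENMO it was called, with 179 of all targets; without EAEcoI 3 targets were called, so that counts ran from 0 to 179 over all targets and from 0 to 1 over proteasome targets. The 9 targets without overlap became 5 with normexp, 4 with no background correction and 10 to 18 with 1 array left out, where fewer arrays overlap less. Targets past the spread numbered 4 for ENMO against both EAE arrays, and 7 with 75th percentile scaling, 2 with normexp and 9 with the deposited values. For T cells at each antibody 2 became 1 with normexp, 1 with no background correction and 5 with the deposited values, and for NMO-IgG only against control IgG only 4 became 2 with normexp. With the spread of spots above background alone, an alternative chosen after seeing the data, these counts were 7, 4 and 11. In pairs that rest partly on values below background, the change of Psme1 minus that of Psme3 went from 1.05 to -0.013 with normexp, that of Psmb10 minus Psmb7 from 2.65 to 1.59 without EAEcoP and 4.25 without EAEcoI, and Psmb10 stood at 0.747-fold within slide 2. Over 56 other ratios, 660 values moved by less than the spread and 39 by more. The ratio of T cells to no T cells lay on the other side of 1 in 43 of 448 values, for 17 of 28 targets, and that of ENMO to EAE in 45 of 252, for 18 of 28; 1 of these, Psmb10, had been past the spread. The cause was not tested. Targets near background had the least certain ratios.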
